A study of Bos taurus with 12 samples.

Results

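The genes described here are the families that copy DNA and divide the cell, measured in cultured bovine aortic endothelial cells under 4 kinds of flow. They were chosen by a rule on gene symbols: the MCM, ORC, GINS, RFC and replicative polymerase families, PCNA, RRM1, RRM2 and TYMS, the condensins and SMC proteins, the CENP, BUB, KIF, AURK and PLK families, the CKS, CDC and CDK symbols, cyclins A to F other than CCND1 and CCNE2, and ECT2, CKAP2 and TOP2A. Earlier results of these data were known when the rule was set, so the choice was not blind to them. The rule found 99 genes among the 3977 genes named on the array, each represented by its brightest probe set, judged by the mean over the 12 arrays. Sorted by role, 73 of the 99 belong to 9 roles of replication and division. The other 26 match the symbols but were sorted outside these roles. They are 1 inhibitor of cyclin-dependent kinases, 6 kinesins of transport or microtubule turnover and 19 genes called here a match by name only. The 19 include the chaperone CDC37 and the splicing factor CDC40. Some of the 19 are not foreign to the cycle, such as CDK2AP1, which binds CDK2, PLK2, of centrioles, and the kinase CDK7, so the sorting is coarse. The annotation names only probe sets of the authors' filtered table, which is the brighter part of the array (median of probe set means 8.18, against 4.59 log2 units for the remaining probe sets). Family members outside it, TOP2A among them, were not analysed here, so the 99 passed a filter on low values and are not the whole families.

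Before a cell divides it licenses its origins with the origin recognition complex and loads the MCM helicase, and polymerases held by the PCNA clamp then copy the DNA. Cyclin-dependent kinases with their cyclins order these steps, condensins pack the copied chromosomes, kinetochores built on CENP proteins hold them to the spindle, and the anaphase-promoting complex releases them. Most of these genes are transcribed in waves during the cycle, so their summed RNA in a culture is widely used as a measure of how many cells are cycling. In intact arteries endothelial cells divide rarely, and the flow they sense is one of the signals known to affect that.

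The cells were bovine aortic endothelial cells at passage 15, grown on coverslips for 5 days to confluence in DMEM with 10% serum and 1% antibiotics. For 24 h before flow they were held in medium with 5% serum, 1% antibiotics and 8% Dextran 70, a polymer that thickens the medium. Flow then ran for 24 h in 1 of 4 conditions of wall shear stress (WSS), the drag of the fluid on the cells: a positive spatial gradient of WSS, a negative gradient, a uniform high WSS of 28.4 Pa or a uniform baseline of 3.5 Pa. Each condition has 3 arrays, which the titles number 1, 2 and 3, and values are given below in that order. The labels do not state the local stress in the gradient chambers or whether replicates were separate cultures, so p-values measure only the spread between these samples, which may be technical. The records of the gradient samples and those of the uniform-flow samples are numbered in 2 separate runs. Where a gradient is compared with high WSS or baseline, the gradient and the run of records cannot be told apart.

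Values are log2 signals after the authors' normalization, and their precision is limited by the number of arrays. Array medians lay between 5.65 and 5.72. Of the 14 endothelial markers 9 were measured, and 7 of them were brighter than the median gene; the mean of these 9 was 9.73 to 9.91 under the positive gradient, 9.81 to 9.85 under the negative gradient, 9.48 to 9.82 at high WSS and 9.38 to 9.46 at baseline. In the same order of groups the 2 measured of 9 smooth muscle markers averaged 7.0003 to 7.90, 7.41 to 8.56, 6.71 to 7.54 and 6.89 to 7.41, and the 3 of 8 fibroblast markers 8.52 to 9.15, 8.56 to 9.49, 8.93 to 9.501 and 9.18 to 9.76. Of 8 leukocyte markers CD14 was measured, at 4.18 to 5.52, 4.47 to 7.12, 3.98 to 6.09 and 5.15 to 7.99. The 3′ minus 5′ difference of the EF1A control, a sign of RNA quality or labelling, was −2.08 to −1.54 under the positive gradient, −2.16 to −1.81 under the negative gradient, −2.03 to −1.09 at high WSS and −1.42 to −1.04 at baseline. For the GAPDH control it was 0.040 to 0.34, 0.041 to 0.17, 0.089 to 0.70 and 0.59 to 0.69. For the actin control it was 0.95 to 1.20, 0.63 to 1.53, 1.06 to 1.24 and 1.01 to 1.69, and these ranges overlapped. In EF1A and GAPDH the 3 baseline arrays and high WSS arrays 1 (−1.09 and 0.64) and 2 (−1.15 and 0.70) thus stood apart from the 6 gradient arrays. High WSS array 3 (−2.03 and 0.089) stood with the gradients in these 2 controls, but in actin (1.14) it lay between high WSS arrays 1 (1.06) and 2 (1.24). The part of this in the results was not tested, and counts of called members that change without high WSS array 3 are given with and without it.

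As a set the 73 division genes followed both the flow condition and the replicate number. Their mean log2 signal was 8.89, 8.24 and 8.49 on the positive gradient arrays, 8.74, 7.64 and 7.84 on the negative gradient arrays, 8.89, 8.33 and 8.57 at high WSS and 8.29, 7.40 and 7.95 at baseline. At each replicate number the positive gradient and high WSS were the upper 2 of the 4 conditions and stood within 0.1 of each other. Baseline was lowest at numbers 1 and 2, and at number 3 the negative gradient was. Within each condition the array numbered 1 was highest and the array numbered 2 lowest, so that the means over the 4 arrays of a number were 8.70, 7.90 and 8.21, against group means of 8.54 under the positive gradient, 8.07 under the negative gradient, 8.60 at high WSS and 7.88 at baseline. The range over replicate numbers thus exceeded the range over flow conditions. Single genes departed from this: CDC26, a subunit of the anaphase-promoting complex, was highest on array 2 in all 4 conditions, and CDC34, a ubiquitin-conjugating enzyme, had 4.82% of its variation between numbers and 58.4% in the remainder of the split described below. In the 26 other genes the mean barely moved: 8.60, 8.57 and 8.54 on the positive gradient arrays, 8.62, 8.43 and 8.59 on the negative gradient arrays, 8.60, 8.58 and 8.54 at high WSS and 8.59, 8.48 and 8.61 at baseline. A level mean of these 26 does not show that single genes among them held still, since genes that rise and genes that fall offset each other in it. In bulk RNA, fewer cycling cells and less RNA per cycling cell cannot be told apart.

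**Figure D1:**
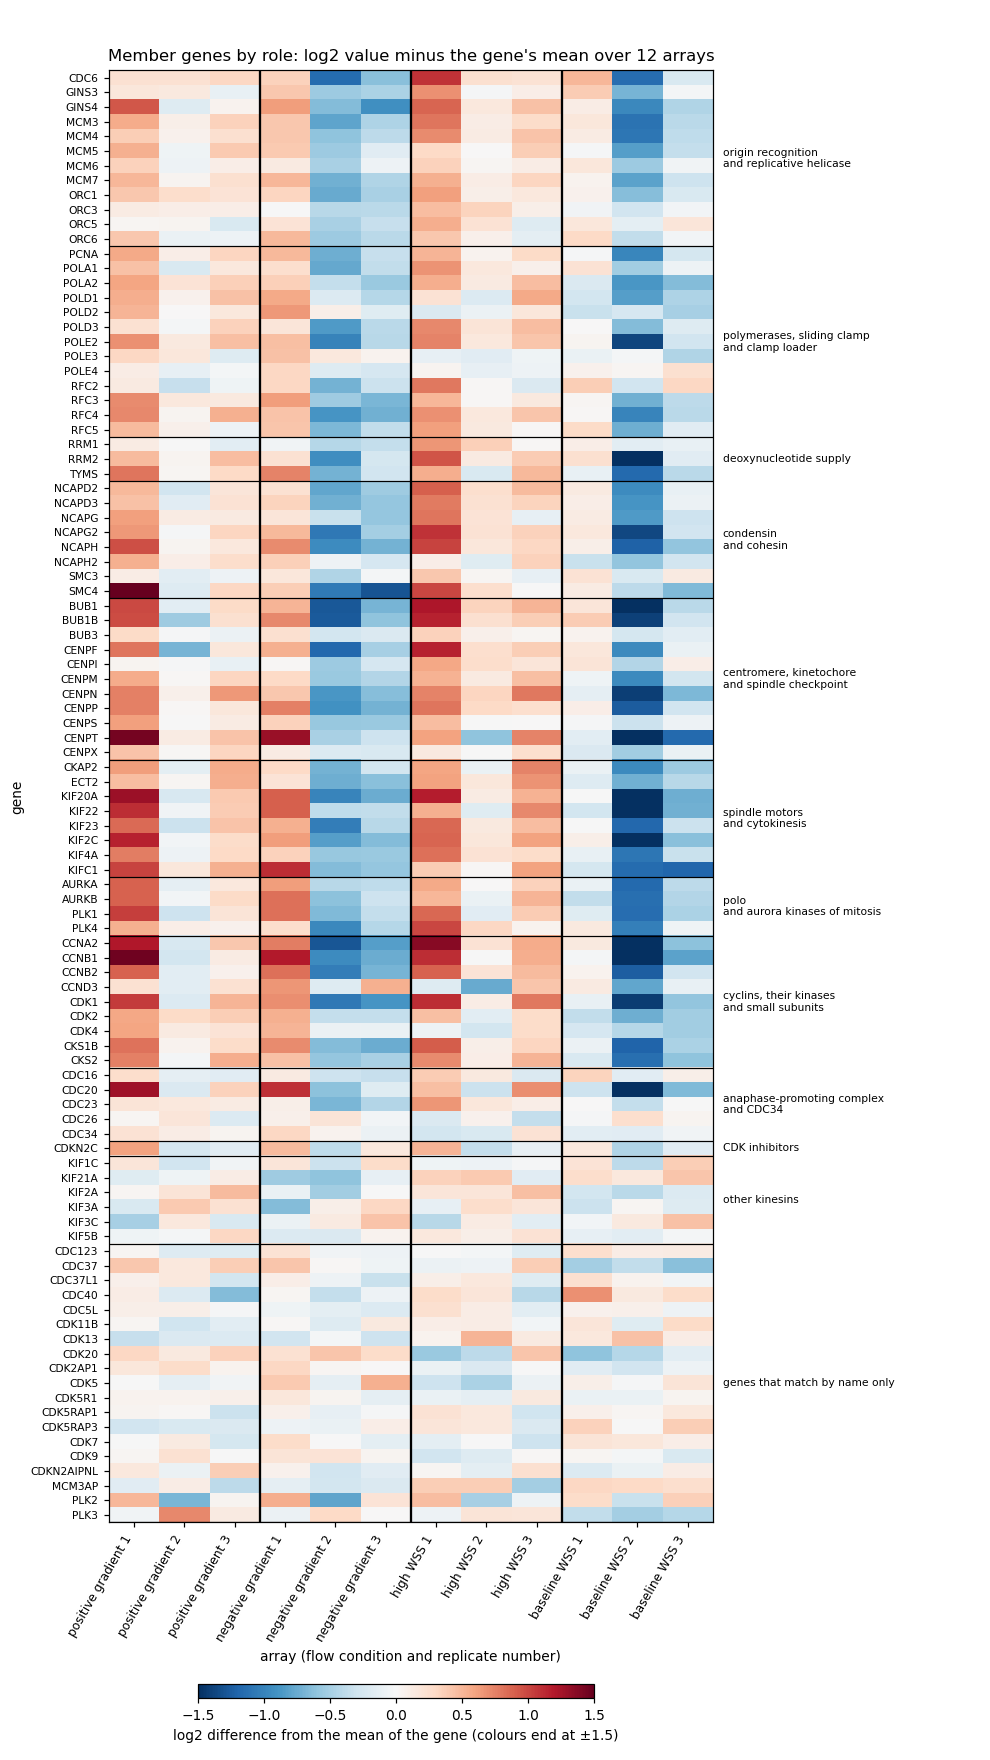
Log2 value of each of the 99 genes on each array minus the mean of that gene over the 12 arrays (colour scale in log2 units, ending at ±1.5), with genes down the page by role and arrays across in the order positive gradient, negative gradient, high WSS and baseline. Baseline array 2 is the lowest of the 12 arrays for 48 of the 73 division genes, whereas the bottom rows, genes that match by name only, show no common pattern.

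Baseline array 2 held the lowest of the 12 values for 48 of the 73 division genes, against 13.9% of all named genes, and negative gradient array 2 held it for 16. The share of named genes lowest on that array was 14.1%. The highest value fell on high WSS array 1 for 35 and on positive gradient array 1 for 26, against 14.1% and 7.39% of named genes. Inside the groups, array 2 was the lowest of the 3 for 59 of 73 division genes under the positive gradient, 57 under the negative gradient, 53 at high WSS and 67 at baseline. Among all named genes array 2 was lowest for 29.5%, 43.0%, 27.2% and 46.0%. The variation of each gene over the 12 arrays was split into the part between flow conditions, the part between replicate numbers and a remainder. In the median division gene 43.2% of it lay between flow conditions, 45.7% between replicate numbers and 9.76% in the remainder. In the median of the 26 other genes these shares were 42.7%, 33.3% and 21.3%, so the part between flow conditions was about as large as in the division genes. In the median named gene they were 48.0%, 27.5% and 20.2%. The CDK4 and CDK6 inhibitor CDKN2C was near one end with 86.6% between numbers and 6.76% between flow conditions, and the chaperone CDC37 at the other with 2.16% and 77.2%.

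**Figure D2:**
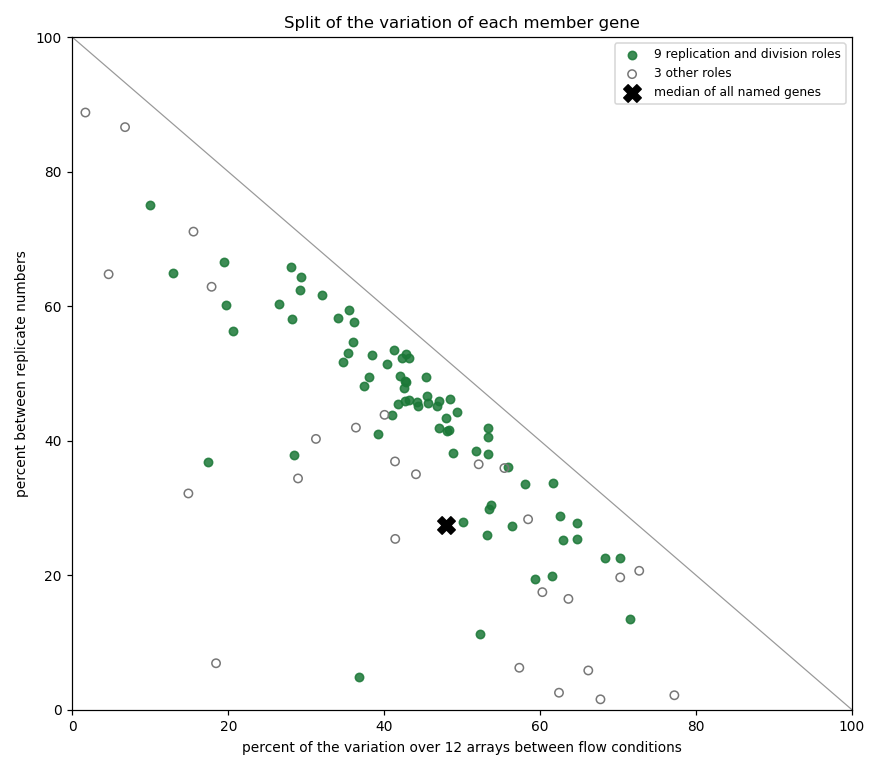
Percent of the variation of each gene over the 12 arrays that lay between flow conditions (x axis) and between replicate numbers (y axis), for the 73 genes of 9 division roles (filled) and the 26 other genes (open), with the median of all named genes as a cross; points on the diagonal have no remainder. Division genes lie nearer to the diagonal (median remainder 9.76%) than the median named gene (20.2%).

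Each comparison was fitted with limma without a block, the main test. In 5 of the 6 comparisons, all but the negative gradient against high WSS, arrays that share a number deviated together, and for these the fit with a block for the replicate number, which compares arrays of the same number, is given beside it. A gene was called at a Benjamini-Hochberg adjusted p under 0.05 over all 24016 probe sets of the comparison, and p-values below are adjusted ones unless called unadjusted. Differences are in log2 units, and SEs and 95% intervals come from the fit without the block. The baseline arrays enter 3 of the comparisons and the other groups also enter 3 each, so the comparisons are not independent of each other, and each one's values are given side by side below.

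Under the positive gradient against baseline, the comparison with the most calls, genes of every division role stood higher: of the 99 genes 79 had a positive difference, 73 were higher in all 3 numbered pairs, against 36.1% of all named genes, and the median difference was 0.54 log2 units, against −0.041 over all named genes. Without the block limma called 8 of the 99 higher and 0 lower, against 6.08% and 7.77% of all named genes; 45 of the 99 had an unadjusted p under 0.05, close to the 43.4% of named genes that did. The 8 were CENPN of the kinetochore, CKS2, CDK2 and CDK4 of the cell cycle kinases, POLA2 of the primase complex, the condensin subunit NCAPH2, and CDC37 and PLK3, which match by name. With the block 51 were called higher and 3 lower, against 16.1% and 18.2% of named genes, and all 8 were among them. Of the 73 division genes 47 were called higher with the block and 0 lower, with a median difference of 0.70. The 8 calls without the block rest on few arrays: limma called 0 without any 1 of the 3 positive gradient arrays or without baseline array 3, 1 without baseline array 1 and 2 without baseline array 2. Without 1 array of another group, which enters through the common spread, there were 4 (high WSS 1, negative gradient 2 or negative gradient 3), 5 (high WSS 2), 15 (negative gradient 1) or 16 (high WSS 3). The 54 calls with the block became 25 without the 4 arrays numbered 1, 0 without those numbered 2 and 44 without those numbered 3, in fits of fewer arrays.

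The division roles stood above baseline at high WSS as well. Of the 99 genes 82 had a positive difference, 71 were higher in all 3 numbered pairs, against 27.3% of named genes, and the median was 0.56, against −0.014 over all named genes. Without the block limma called 0 of the 99 (0.251% of named genes were called higher and 0.93% lower), and 52 of the 99 had an unadjusted p under 0.05, against 26.8% of named genes. With the block 44 of the 99 were called higher and 0 lower, against 6.79% and 7.77% of named genes. Among the 73 division genes 43 were called higher with the block, with a median difference of 0.80. These 44 calls became 34 without the arrays numbered 1, 0 without those numbered 2 and 28 without those numbered 3, and without the block 1 gene was called when negative gradient array 1 was left out.

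Under the negative gradient against baseline 50 of the 73 division genes had a positive difference, with a median of 0.18, and 3 were called with the block. Role medians were highest for the polo and aurora kinases (0.51), the cyclins and their kinases (0.45, 9 of 9 positive) and the spindle motors (0.38, 8 of 8 positive). The median difference over the 99 genes was 0.12, against −0.069 over all named genes, and 27 were higher in all 3 pairs, against 26.6% of named genes. Without the block limma called 0 members, where 3.14% of named genes were called higher and 0.503% lower; 14 of the 99 had an unadjusted p under 0.05, against 29.0% of named genes. With the block 5 were called higher, namely CENPT, KIF22, CDC20, CDC37 and CDK20, and 2 lower, KIF21A and CDK13, against 8.32% and 3.55% of named genes. The median changed sign, to −0.15 without negative gradient array 1 and to −0.095 without baseline array 2, and was 0.31 without negative gradient array 2, 0.29 without baseline array 1 and 0.20 without negative gradient array 3. The calls with the block numbered 0 without the arrays numbered 1, 0 without those numbered 2 and 17 without those numbered 3, and without the block 4 were called when high WSS array 3 was left out.

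The positive against the negative gradient is the comparison that the title of the study names. Of the 73 division genes 70 had a positive difference, with a median of 0.50, but none passed the test. Over the 99 genes the median was 0.38, against −0.011 over all named genes, 82 differences were positive and 63 genes were higher in all 3 pairs, against 23.6% of named genes. limma called 0 of the 99 without the block (0% of named genes) and 0 with it (0.0754%); the smallest adjusted p with the block was 0.0712, and 11 of the 99 had an unadjusted p under 0.05 without it, against 11.5% of named genes. The mean of the division genes was 8.89 against 8.74 in the pair numbered 1, 8.24 against 7.64 in pair 2 and 8.49 against 7.84 in pair 3. The median over the 99 genes was 0.69 without negative gradient array 1, 0.20 without negative gradient array 2 and 0.25 without positive gradient array 1.

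Differences between the positive gradient and high WSS centred near 0. The median difference of the 99 genes was −0.046, against −0.021 over all named genes, with values from −0.50 to 0.44. limma called 0 of the 99 without the block (0% of named genes) and 0 with it (0%), and 1 of the 99 had an unadjusted p under 0.05, against 6.74% of named genes. The median was −0.19 without positive gradient array 1, 0.074 without positive gradient array 2, −0.018 without positive gradient array 3, 0.072 without high WSS array 1 and −0.14 without high WSS array 2, and without high WSS array 3 limma called 1 gene. The negative gradient stood below high WSS, by a median of −0.42 over the 99 genes, against −0.010 over all named genes, and by −0.59 over the 73 division genes. limma called 0 of the 99 there (0.302% of named genes), with 27 of the 99 at an unadjusted p under 0.05, close to the 25.5% of named genes, and 6 when high WSS array 3 was left out. That median was −0.71 without negative gradient array 1 and −0.26 without negative gradient array 2.

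**Figure D3:**
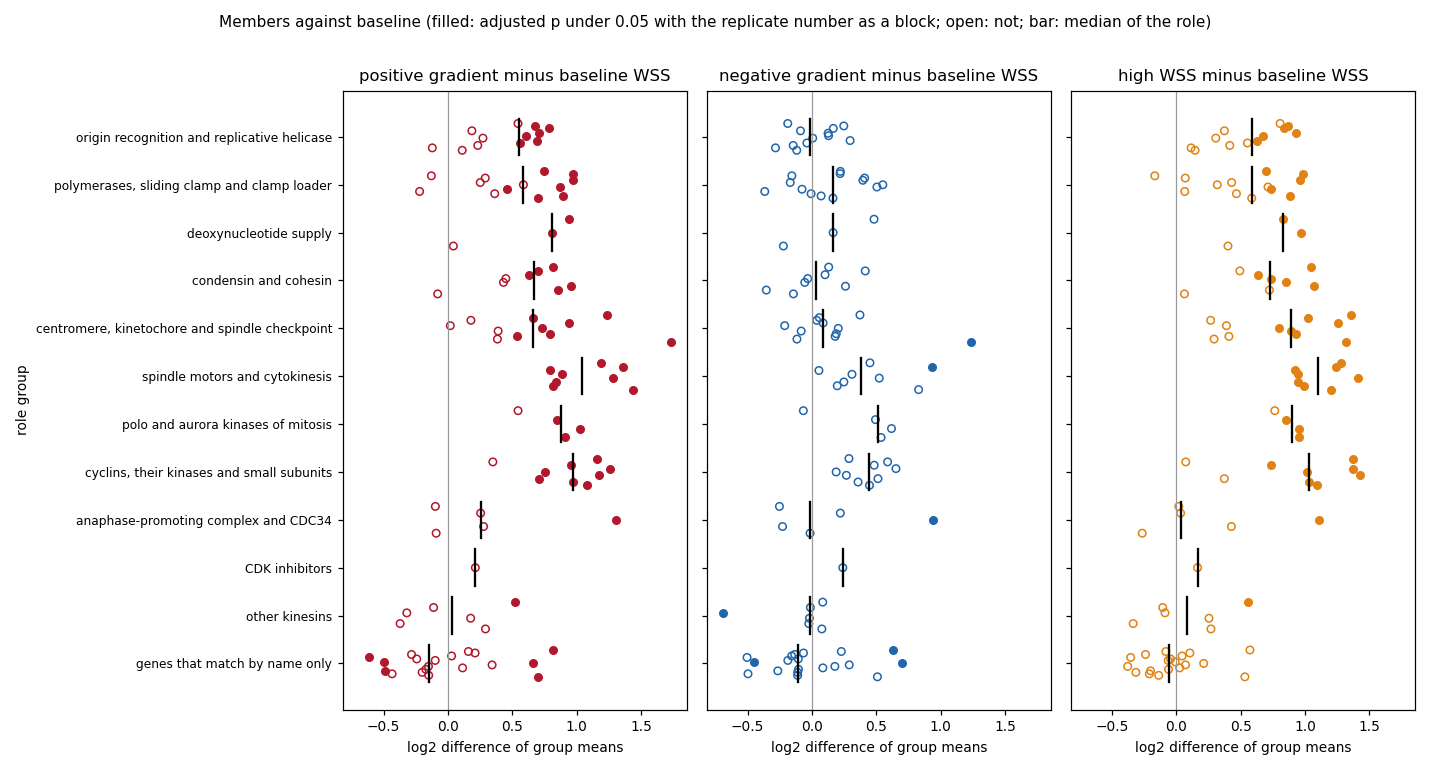
Log2 difference of group means of each of the 99 genes for the positive gradient, the negative gradient and high WSS minus baseline (x axis), with genes grouped by role down the page; filled points had an adjusted p under 0.05 in limma with a block for the replicate number, open points did not, and bars are role medians. All 8 spindle motor and cytokinesis genes are filled in the first and last panels, and 1 of the 8, KIF22, in the middle one.

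Origin recognition and the replicative helicase came first in order of action, with 12 genes. With the block 6 rose under the positive gradient against baseline and 5 at high WSS, and the role medians were 0.55, −0.018 under the negative gradient and 0.59 at high WSS. The MCM proteins form the ring helicase that opens the double strand. MCM7, a subunit of that ring, read 10.02, 9.56 and 9.76 on the positive gradient arrays, 10.02, 8.81 and 9.07 on the negative gradient arrays, 10.06, 9.64 and 9.84 at high WSS and 9.58, 8.72 and 9.21 at baseline. Array 2 was low under both the negative gradient and baseline, and the 3 high WSS arrays lay above the 3 baseline arrays. With the block MCM7 rose under the positive gradient (0.61, adjusted p = 0.026) and at high WSS (0.67, adjusted p = 0.031). Without it limma gave adjusted p-values of 0.185 (SE 0.28) and 0.285. MCM3 (0.78 and 0.84), MCM4 (0.67 and 0.87) and MCM5 (0.69 and 0.62) also rose with the block under the positive gradient and at high WSS, as did GINS4 (0.70 and 0.93), a part of the complex that switches the helicase on. MCM6 did not pass: it read 11.16, 10.74 and 10.91 on the positive gradient arrays, 10.94, 10.33 and 10.74 on the negative gradient arrays, 11.15, 10.84 and 10.92 at high WSS and 10.97, 10.26 and 10.76 at baseline. Its groups overlapped in each comparison, the differences from baseline were 0.27, 0.005 and 0.31, and between the gradients its second probe set had the opposite sign (−0.046, against 0.27).

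The origin recognition subunits were less uniform. ORC1, the subunit that is made and destroyed with the cycle, rose with the block under the positive gradient (0.56, adjusted p = 0.0335 in limma) and stood at 0.55 at high WSS (adjusted p = 0.0662). ORC3, a subunit with a more even level through the cycle, read 7.09, 7.07 and 7.07 on the positive gradient arrays, 6.97, 6.56 and 6.57 on the negative gradient arrays, 7.43, 7.30 and 7.05 at high WSS and 6.92, 6.68 and 6.93 at baseline. The 3 arrays of the positive gradient were almost identical and lay above the 3 of the negative gradient, which also lay below all 3 of high WSS. ORC3 differed by 0.38 between the positive and the negative gradient (95% interval 0.063 to 0.69, adjusted p = 0.889 in limma) and by −0.56 between the negative gradient and high WSS (adjusted p = 0.116). ORC5 and ORC6 stood at −0.12 and 0.11 under the positive gradient against baseline. GINS3, of the same complex as GINS4, stood at 0.19. CDC6, which loads the helicase at origins, read 6.80, 6.80 and 6.88 under the positive gradient, against 7.07, 5.43 and 6.34 at baseline. Its baseline arrays spread over more than 1 unit and its positive gradient arrays hardly at all, and the difference of 0.54 did not pass (adjusted p = 0.153 with the block).

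Among the 13 genes of the polymerases, the sliding clamp and the clamp loader, 7 rose with the block under the positive gradient and 5 at high WSS, with role medians of 0.59 in each and of 0.16 under the negative gradient. POLA2, the second subunit of the polymerase that starts each new strand with a primer, was called without the block. It read 7.95, 7.56 and 7.72 on the positive gradient arrays, 7.71, 6.99 and 6.80 on the negative gradient arrays, 7.90, 7.50 and 7.81 at high WSS and 7.14, 6.48 and 6.70 at baseline. All 3 positive gradient arrays and all 3 high WSS arrays lay above the 3 baseline arrays, and under the negative gradient array 1 alone was at their level. POLA2 was 1.96-fold higher under the positive gradient than at baseline (7.74 ± 0.20 against 6.77 ± 0.33 log2 units, SD, n = 3 each; difference 0.97, SE 0.23, adjusted p = 0.0328 in limma and 0.00446 with the block). At high WSS its difference was 0.96 (adjusted p = 0.086 without the block and 0.0043 with it), and under the negative gradient 0.39 (adjusted p = 0.32 and 0.105). Between the gradients it differed by 0.57 (95% interval 0.072 to 1.07, adjusted p = 0.92).

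PCNA, the ring that holds the polymerases to DNA, read 11.55, 11.07 and 11.30 on the positive gradient arrays, 11.47, 10.24 and 10.63 on the negative gradient arrays, 11.49, 11.03 and 11.26 at high WSS and 10.96, 10.000 and 10.72 at baseline. The positive gradient and high WSS arrays lay above all 3 baseline arrays, whereas the negative gradient spanned both levels. PCNA rose with the block by 0.75 under the positive gradient (adjusted p = 0.013 in limma, 0.127 without the block) and by 0.70 at high WSS (adjusted p = 0.028 and 0.287). POLE2, a subunit of the leading-strand polymerase, and RFC4, a subunit of the loader that opens the ring, rose with the block in both comparisons, by 0.97 and 0.98 for POLE2 and 0.89 and 0.88 for RFC4. POLD3 of the lagging-strand polymerase did so too, by 0.46 and 0.74, and POLD1, its catalytic subunit, and RFC3 rose with the block under the positive gradient, by 0.87 and 0.70. POLD3 read 8.09, 7.05 and 7.49 under the negative gradient, against 8.62, 8.10 and 8.36 at high WSS. No array of the negative gradient reached the lowest of high WSS, and the difference of −0.82 had an adjusted p of 0.15 in limma.

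The small polymerase subunits POLE3 and POLE4, histone-fold proteins that also serve elsewhere in chromatin, did not follow. POLE4 read 9.99, 9.76 and 9.85 on the positive gradient arrays, 10.19, 9.70 and 9.64 on the negative gradient arrays, 9.92, 9.76 and 9.81 at high WSS and 9.95, 9.91 and 10.13 at baseline. Its groups overlapped throughout, and it stood at −0.13, −0.16 and −0.17 against baseline under the positive gradient, the negative gradient and high WSS. POLE3 stood at 0.29, 0.41 and 0.071, and RFC2, RFC5, POLA1 and POLD2 also did not pass against baseline, at −0.22, 0.36, 0.25 and 0.59 under the positive gradient.

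Of the 3 genes of deoxynucleotide supply, RRM2 and TYMS rose with the block under the positive gradient and at high WSS, and RRM1 in neither. RRM2, the subunit of ribonucleotide reductase that varies with the cycle, read 11.11, 10.68 and 11.11 on the positive gradient arrays, 10.86, 9.71 and 10.38 on the negative gradient arrays, 11.58, 10.78 and 11.02 at high WSS and 10.88, 9.12 and 10.47 at baseline. Baseline array 2 was far below all others, and the groups overlapped. RRM2 was higher by 0.81 under the positive gradient (adjusted p = 0.0258 with the block in limma, 0.201 without) and by 0.97 at high WSS (adjusted p = 0.0227 and 0.266). TYMS, which makes thymidylate, differed by 0.94 and 0.83 (adjusted p = 0.00711 and 0.0172 with the block). RRM1, the large subunit of the reductase, whose protein is more stable, read 10.22, 10.08 and 9.93 on the positive gradient arrays, 10.04, 9.66 and 9.74 on the negative gradient arrays, 10.75, 10.45 and 10.11 at high WSS and 10.19, 9.94 and 9.98 at baseline. Its 3 negative gradient arrays lay below the 3 high WSS arrays, with a difference of −0.62 (adjusted p = 0.125 in limma). Under the positive gradient it stood at −0.36 against high WSS (adjusted p = 0.79) and at 0.042 against baseline.

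The condensins and SMC proteins, 8 genes, had role medians of 0.67, 0.034 and 0.73 against baseline under the positive gradient, the negative gradient and high WSS. NCAPH2, a subunit of condensin II, which acts in the nucleus before the envelope breaks down, was called without the block. It read 7.40, 6.97 and 7.12 on the positive gradient arrays, 7.22, 6.78 and 6.61 on the negative gradient arrays, 6.97, 6.69 and 7.21 at high WSS and 6.53, 6.27 and 6.58 at baseline. The 3 baseline arrays were the lowest of the 12. NCAPH2 was 1.63-fold higher under the positive gradient than at baseline (7.16 ± 0.22 against 6.46 ± 0.17, SD, n = 3 each; difference 0.70, SE 0.19, adjusted p = 0.0438 in limma and 0.0134 with the block). It stood at 0.49 at high WSS and 0.41 under the negative gradient, neither past the test.

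NCAPG and NCAPH, subunits of condensin I, and NCAPG2, of condensin II, rose with the block under the positive gradient and at high WSS, NCAPG by 0.63 and 0.64, NCAPH by 0.96 and 1.07, and NCAPG2 by 0.81 and 1.04. NCAPG read 10.69, 10.21 and 10.22 on the positive gradient arrays, 10.27, 9.75 and 9.51 on the negative gradient arrays, 10.88, 10.29 and 9.96 at high WSS and 10.21, 9.23 and 9.78 at baseline. Its groups overlapped, with baseline array 2 lowest. NCAPD2 read 9.44, 8.67 and 9.13 on the positive gradient arrays, 9.18, 8.17 and 8.42 on the negative gradient arrays, 9.85, 9.21 and 9.43 at high WSS and 9.09, 8.01 and 8.84 at baseline. High WSS lay above both baseline and the negative gradient on all 3 arrays. NCAPD2 rose with the block at high WSS (0.85, adjusted p = 0.00627 in limma), as did NCAPD3 (0.74, adjusted p = 0.0224), and under the positive gradient they stood at 0.43 (adjusted p = 0.0547) and 0.45 (adjusted p = 0.0729).

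SMC4, the ATPase shared by both condensins, had the largest difference between the 2 gradients among the 99 genes. It read 9.13, 7.39 and 7.89 on the positive gradient arrays, 7.95, 6.53 and 6.29 on the negative gradient arrays, 8.59, 7.83 and 7.58 at high WSS and 7.71, 7.20 and 6.93 at baseline. In each numbered pair the positive gradient was higher than the negative, by 1.18, 0.87 and 1.60, although negative gradient array 1 lay among the positive gradient values. SMC4 differed by 1.21 between the gradients (95% interval 0.20 to 2.23), with an adjusted p of 0.889 in limma and 0.0712 with the block. Against baseline it rose with the block under the positive gradient (0.86, adjusted p = 0.0204) and stood at −0.36 under the negative gradient. SMC4 has 3 probe sets, which shared the sign between the gradients and under the positive gradient against baseline. Under the negative gradient against baseline they differed in sign, so that direction is uncertain. SMC3 of cohesin, which holds sister chromatids together, stood at −0.08, −0.14 and 0.064 against baseline under the positive gradient, the negative gradient and high WSS.

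**Figure D4:**
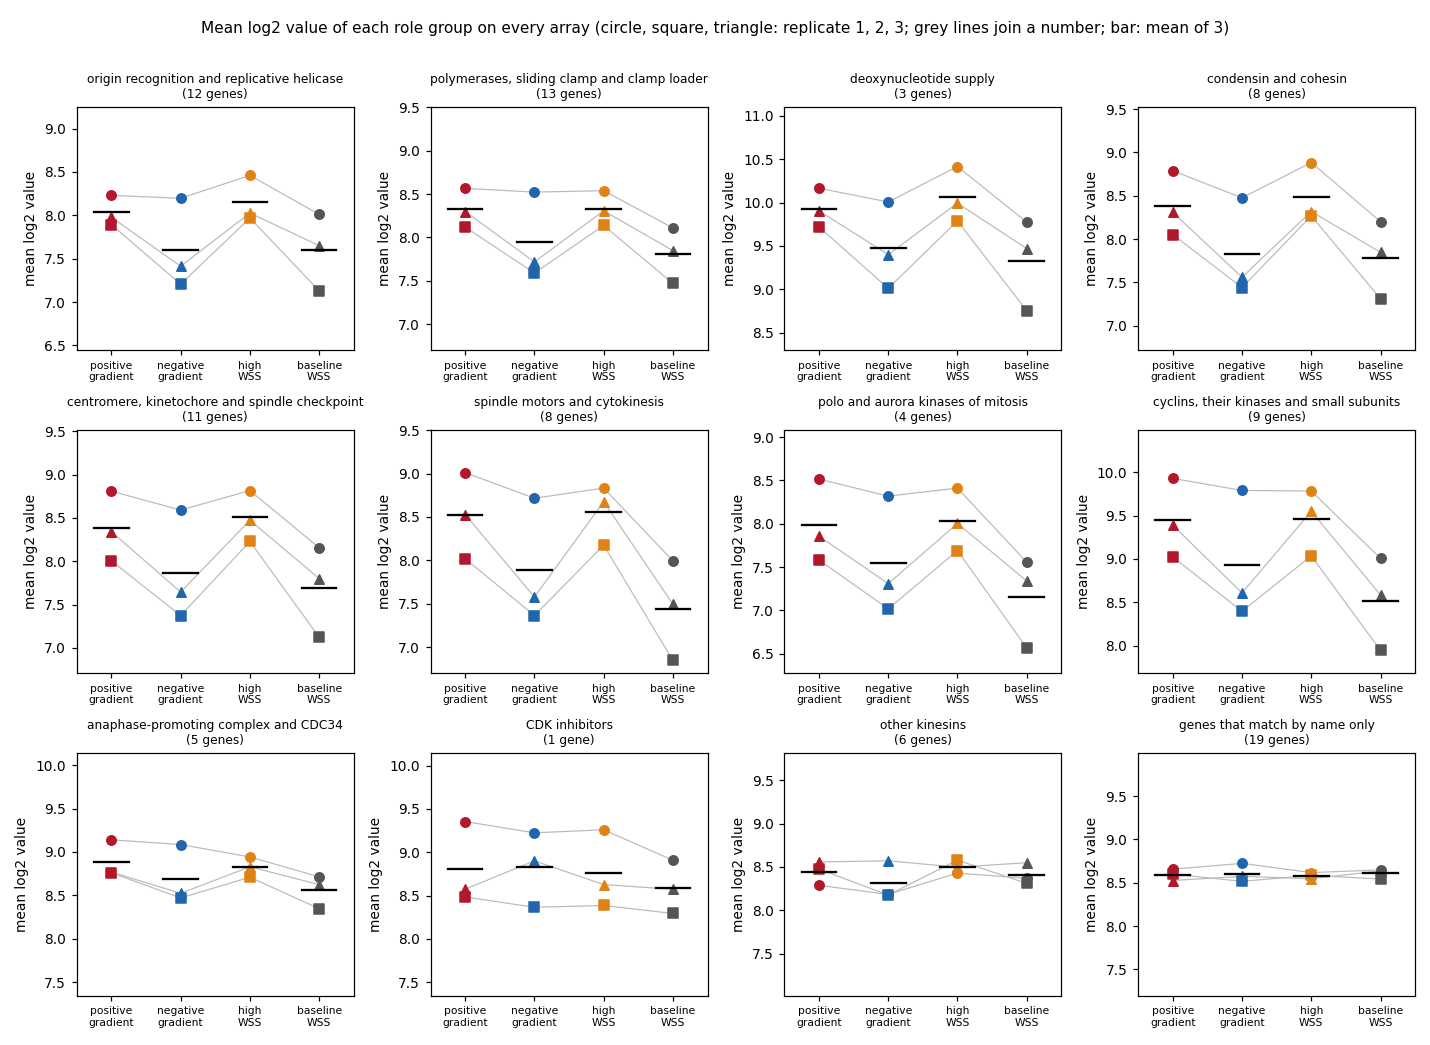
Mean log2 value (y axis, spans of equal height) of each of the 12 role groups on every array; circles, squares and triangles are replicates 1, 2 and 3, grey lines join arrays of the same number and bars are means of 3 arrays. In each of the 9 division roles number 1 is highest in all 4 conditions, whereas the mean of the 19 genes that match by name only gives nearly level lines.

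The 11 genes of the centromere, the kinetochore and the spindle checkpoint had medians of 0.66 under the positive gradient, 0.086 under the negative gradient and 0.89 at high WSS against baseline. With the block 7 rose under the positive gradient, 1 under the negative gradient and 7 at high WSS. CENPN, which binds the centromeric nucleosome and helps to build the inner kinetochore, was called without the block. It read 9.34, 8.66 and 9.23 on the positive gradient arrays, 8.98, 7.71 and 7.95 on the negative gradient arrays, 9.32, 8.90 and 9.37 at high WSS and 8.44, 7.16 and 7.91 at baseline. All positive gradient and high WSS arrays lay above all baseline arrays, and of the negative gradient only array 1 did. CENPN was 2.35-fold higher under the positive gradient than at baseline (9.07 ± 0.37 against 7.84 ± 0.64, SD, n = 3 each; difference 1.23, SE 0.35, adjusted p = 0.0498 in limma and 0.00446 with the block). A second probe set of CENPN differed by 1.26 (adjusted p = 0.108 without the block and 0.00764 with it). At high WSS CENPN differed by 1.36 (adjusted p = 0.1 and 0.00331), and between the gradients by 0.86 (95% interval 0.11 to 1.61, adjusted p = 0.916).

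CENPT, which ties the centromere to the outer kinetochore, had the largest difference of all 99 genes under the positive gradient. It read 7.59, 6.29 and 6.58 on the positive gradient arrays, 7.45, 5.67 and 5.85 on the negative gradient arrays, 6.76, 5.55 and 6.91 at high WSS and 5.996, 4.27 and 4.99 at baseline. Baseline arrays 2 and 3 were the lowest, and array 1 stood more than 1 unit above the array numbered 2 in each group. These 2 baseline values were below the array medians, so the size of the difference rests partly on low signals. CENPT rose with the block by 1.73 under the positive gradient (adjusted p = 0.00388 in limma). Without the block the adjusted p there was 0.0667, with an SE of 0.54. With the block CENPT also rose by 1.24 under the negative gradient (adjusted p = 0.0282) and by 1.32 at high WSS (adjusted p = 0.0113). CENPM, CENPP and the checkpoint proteins BUB1 and BUB1B rose with the block under the positive gradient and at high WSS, CENPM by 0.73 and 0.80, CENPP by 0.79 and 0.93, and BUB1B by 0.66 and 1.02. BUB1, a checkpoint kinase, read 9.19, 8.04 and 8.48 on the positive gradient arrays, 8.71, 6.93 and 7.51 on the negative gradient arrays, 9.41, 8.53 and 8.71 at high WSS and 8.38, 6.71 and 7.80 at baseline. It was lowest on baseline array 2 and highest on high WSS array 1, and differed by 0.94 and 1.25 (adjusted p = 0.00897 and 0.00368 with the block). CENPX rose with the block under the positive gradient (0.54) and CENPF, a large protein of the outer kinetochore, at high WSS (0.89).

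BUB3, a checkpoint protein with further roles, CENPS, which also works in DNA repair, and CENPI did not pass against baseline. BUB3 read 11.21, 10.90 and 10.84 on the positive gradient arrays, 11.17, 10.65 and 10.71 on the negative gradient arrays, 11.27, 10.997 and 10.95 at high WSS and 10.98, 10.66 and 10.77 at baseline. The groups overlapped and the differences from baseline were 0.18, 0.036 and 0.27. CENPS read 9.56, 8.94 and 9.08 on the positive gradient arrays, 9.30, 8.38 and 8.40 on the negative gradient arrays, 9.41, 8.94 and 8.96 at high WSS and 8.93, 8.63 and 8.87 at baseline. Its positive gradient and high WSS arrays lay above those of baseline, with differences of 0.38 and 0.29 (adjusted p = 0.0866 and 0.281 with the block). CENPI was lower under the positive gradient (7.43, 7.37 and 7.28) than at high WSS (7.97, 7.65 and 7.57) on all arrays, and the difference of −0.37 had an adjusted p of 0.79 in limma.

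All 8 genes of spindle motors and cytokinesis rose with the block under the positive gradient (median 1.04) and at high WSS (median 1.10), and under the negative gradient 1 did (median 0.38). KIFC1, a motor that bundles the spindle poles, read 7.92, 7.07 and 7.43 on the positive gradient arrays, 8.02, 6.25 and 6.32 on the negative gradient arrays, 7.29, 6.93 and 7.50 at high WSS and 6.64, 5.75 and 5.71 at baseline. Every positive gradient and high WSS array lay above the 3 baseline arrays, and negative gradient array 1 was the highest of the 12. KIFC1 differed by 1.44 under the positive gradient (SE 0.41, adjusted p = 0.0523 in limma and 0.00764 with the block), by 0.83 under the negative gradient (adjusted p = 0.0723 with the block) and by 1.20 at high WSS (adjusted p = 0.023). KIF22, a motor that pushes chromosome arms, read 8.45, 7.29 and 7.72 on the positive gradient arrays, 8.24, 6.96 and 6.97 on the negative gradient arrays, 7.87, 7.16 and 8.06 at high WSS and 7.06, 5.69 and 6.62 at baseline. It was the one gene of the role to rise with the block under the negative gradient too, with differences of 1.36, 0.93 and 1.24 (adjusted p = 0.00502, 0.0343 and 0.0077 with the block). KIF20A, KIF23 and KIF4A of the central spindle and KIF2C, which dismantles wrong attachments, rose with the block by 1.28, 0.82, 0.84 and 1.19 under the positive gradient and 1.41, 0.99, 0.94 and 1.28 at high WSS.

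ECT2, the exchange factor that starts the cleavage furrow, had the smallest p of the 99 genes between the gradients. It read 9.11, 8.68 and 9.19 on the positive gradient arrays, 8.85, 7.91 and 8.02 on the negative gradient arrays, 9.25, 8.82 and 9.31 at high WSS and 8.46, 7.93 and 8.23 at baseline. Both the positive gradient and high WSS lay above baseline on all arrays, and under the negative gradient arrays 2 and 3 were at the baseline level while array 1 was higher. ECT2 differed between the gradients by 0.74 (95% interval 0.21 to 1.26, unadjusted p = 0.0101), which did not pass (adjusted p = 0.826 in limma, 0.119 with the block). Against high WSS the negative gradient stood at −0.87 (adjusted p = 0.132). ECT2 rose with the block by 0.79 under the positive gradient (adjusted p = 0.0106) and 0.92 at high WSS (adjusted p = 0.00769), and stood at 0.053 under the negative gradient. CKAP2, a spindle protein, read 10.73, 9.96 and 10.66 on the positive gradient arrays, 10.41, 9.39 and 9.83 on the negative gradient arrays, 10.70, 10.004 and 10.84 at high WSS and 10.002, 9.14 and 9.56 at baseline. It was low on baseline array 2 and negative gradient array 2, and rose with the block by 0.89 and 0.95. Its second probe set had 0.68 and 0.98, and under the negative gradient its 2 probe sets had opposite signs (0.31 and −0.57).

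The polo and aurora kinases of mitosis had role medians of 0.88, 0.51 and 0.90 against baseline under the positive gradient, the negative gradient and high WSS, and AURKA, AURKB and PLK1 rose with the block under the positive gradient and at high WSS. AURKB, the kinase of the chromosomal passenger complex, read 9.25, 8.32 and 8.65 on the positive gradient arrays, 9.20, 7.75 and 8.05 on the negative gradient arrays, 8.86, 8.27 and 8.88 at high WSS and 8.000, 7.23 and 7.92 at baseline. Array 1 was high under both gradients and the positive gradient stayed above baseline on all 3 arrays. It was 2.03-fold higher under the positive gradient (difference 1.02, SE 0.35, adjusted p = 0.0884 in limma and 0.00792 with the block) and differed by 0.62 under the negative gradient (adjusted p = 0.0656) and 0.95 at high WSS (adjusted p = 0.0154). AURKA, which works at the spindle poles, read 8.95, 7.93 and 8.22 on the positive gradient arrays, 8.69, 7.66 and 7.69 on the negative gradient arrays, 8.63, 8.07 and 8.41 at high WSS and 7.97, 6.91 and 7.68 at baseline. It differed by 0.85 under the positive gradient (adjusted p = 0.00881 with the block), 0.49 under the negative gradient (adjusted p = 0.0784) and 0.85 at high WSS (adjusted p = 0.0124). PLK1, the main polo kinase of mitosis, rose with the block by 0.91 and 0.95 under the positive gradient and at high WSS. PLK4, which starts centriole duplication, stood at 0.54 and 0.77, with adjusted p-values of 0.0836 and 0.0505 in limma with the block.

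Of the 9 cyclins, cell cycle kinases and small subunits, 8 rose with the block under the positive gradient and 7 at high WSS, with medians of 0.97 and 1.03, and under the negative gradient the median was 0.45. CKS2 and CKS1B are small proteins that dock onto cyclin-dependent kinases. CKS2 was called without the block and read 11.53, 10.75 and 11.32 on the positive gradient arrays, 11.22, 10.19 and 10.29 on the negative gradient arrays, 11.49, 10.87 and 11.28 at high WSS and 10.55, 9.65 and 10.18 at baseline. The positive gradient and high WSS lay above baseline on all arrays, and negative gradient array 1 was about 1 unit above the other 2 of its group. CKS2 was 2.11-fold higher under the positive gradient than at baseline (11.20 ± 0.40 against 10.12 ± 0.45, SD, n = 3 each; difference 1.08, SE 0.30, adjusted p = 0.0496 in limma and 0.00329 with the block). It differed by 1.09 at high WSS (adjusted p = 0.123 and 0.003), by 0.45 under the negative gradient (adjusted p = 0.39 and 0.0744) and by 0.63 between the gradients (95% interval −0.02 to 1.29). CKS1B rose with the block by 0.97 and 1.03.

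CDK2, the kinase of S phase, was called without the block too. It read 8.86, 8.57 and 8.66 on the positive gradient arrays, 8.81, 7.92 and 7.93 on the negative gradient arrays, 8.73, 8.13 and 8.56 at high WSS and 7.91, 7.55 and 7.75 at baseline. The 3 baseline arrays were the lowest of the 12, and negative gradient arrays 2 and 3 were just above them. CDK2 was 1.94-fold higher under the positive gradient than at baseline (8.69 ± 0.15 against 7.74 ± 0.18, SD, n = 3 each; difference 0.96, SE 0.23, adjusted p = 0.0328 in limma and 0.00502 with the block), and differed by 0.73 at high WSS (adjusted p = 0.0183 with the block) and 0.48 under the negative gradient (adjusted p = 0.0694). CDK4, the kinase of cyclin D in G1, read 9.89, 9.43 and 9.51 on the positive gradient arrays, 9.81, 9.22 and 9.20 on the negative gradient arrays, 9.22, 9.03 and 9.57 at high WSS and 9.05, 8.87 and 8.78 at baseline. Both gradients lay above baseline on all arrays, and high WSS array 2 fell among the baseline values. CDK4 was 1.64-fold higher under the positive gradient than at baseline (difference 0.71, SE 0.20, adjusted p = 0.0475 in limma and 0.0162 with the block). It stood at 0.51 under the negative gradient (adjusted p = 0.0707 with the block) and at 0.37 at high WSS (adjusted p = 0.217).

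CDK1, the kinase of mitosis, read 10.88, 9.62 and 10.33 on the positive gradient arrays, 10.52, 8.75 and 8.94 on the negative gradient arrays, 10.93, 9.94 and 10.61 at high WSS and 9.72, 8.40 and 9.24 at baseline. It was lowest on baseline array 2 and its 3 high WSS arrays lay above the 3 of baseline. With the block it rose by 1.16 under the positive gradient (adjusted p = 0.00626 in limma, 0.134 without the block) and 1.37 at high WSS (adjusted p = 0.00366 and 0.192). Its cyclins rose with it: CCNA2 by 1.18 and 1.43, CCNB1 by 1.26 and 1.37, and CCNB2 by 0.76 and 1.01, all with the block. CCNA2 had the largest difference of the 99 genes at high WSS and read 8.53, 7.09 and 7.73 on the positive gradient arrays, 8.09, 6.04 and 6.50 on the negative gradient arrays, 8.69, 7.55 and 7.88 at high WSS and 7.48, 5.64 and 6.71 at baseline. Its range within each group, over 1 unit from array 1 to array 2, was of the size of the differences between groups. CCND3, a G1 cyclin, did not pass and read 9.48, 9.10 and 9.48 on the positive gradient arrays, 9.92, 9.06 and 9.78 on the negative gradient arrays, 9.06, 8.50 and 9.67 at high WSS and 9.39, 8.48 and 9.14 at baseline. In contrast to the mitotic cyclins it was highest on negative gradient arrays 1 and 3, and differed from baseline by 0.35 under the positive gradient, 0.59 under the negative gradient and 0.074 at high WSS.

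**Figure D5:**
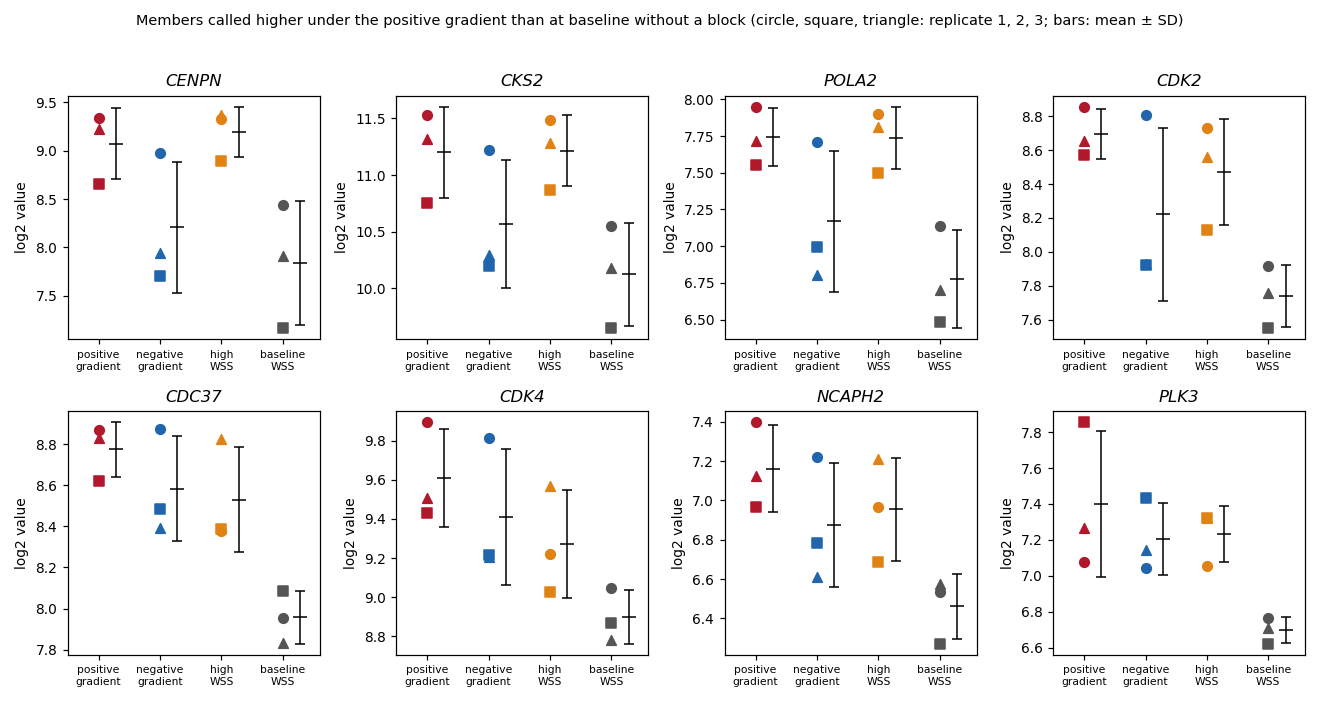
Log2 value on each array (y axis) of the 8 genes called in limma without a block for the positive gradient against baseline, in the 4 flow conditions; circles, squares and triangles are replicates 1, 2 and 3, and bars are mean ± SD of 3 arrays. In all 8 panels the 3 positive gradient points lie above the 3 baseline points; y axes do not start at 0 and differ between panels.

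In the role of the anaphase-promoting complex and CDC34, 1 of 5 genes rose with the block, CDC20, the activator of the complex. It read 9.27, 7.78 and 8.34 on the positive gradient arrays, 9.10, 7.39 and 7.82 on the negative gradient arrays, 8.45, 7.68 and 8.69 at high WSS and 7.69, 6.47 and 7.34 at baseline. Both gradients had a high array 1, and all 3 positive gradient arrays lay above baseline. With the block CDC20 rose by 1.30 under the positive gradient (adjusted p = 0.00599 in limma), 0.94 under the negative gradient (adjusted p = 0.0356) and 1.11 at high WSS (adjusted p = 0.0151). The core subunits stood nearer to 0. CDC16 read 9.65, 9.24 and 9.21 on the positive gradient arrays, 9.53, 9.08 and 9.04 on the negative gradient arrays, 9.77, 9.53 and 9.16 at high WSS and 9.72, 9.22 and 9.47 at baseline, and CDC26 read 10.28, 10.43 and 10.04 on the positive gradient arrays, 10.33, 10.44 and 10.20 on the negative gradient arrays, 10.03, 10.31 and 9.89 at high WSS and 10.23, 10.50 and 10.29 at baseline. In both the groups overlapped, and under the positive gradient against baseline they stood at −0.10 and −0.091. CDC23, another core subunit, read 7.63, 7.59 and 7.55 on the positive gradient arrays, 7.52, 6.74 and 6.99 on the negative gradient arrays, 8.10, 7.60 and 7.53 at high WSS and 7.44, 7.07 and 7.42 at baseline. The positive gradient lay above the negative gradient on all arrays, with a difference of 0.51 (95% interval 0.071 to 0.94, adjusted p = 0.911 in limma). CDC34, a ubiquitin-conjugating enzyme that serves a different ligase, stood at 0.25, 0.22 and 0.035 against baseline.

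CDKN2C, an inhibitor of CDK4 and CDK6, was the one measured inhibitor of its kind. It read 9.35, 8.48 and 8.57 on the positive gradient arrays, 9.22, 8.37 and 8.90 on the negative gradient arrays, 9.26, 8.39 and 8.63 at high WSS and 8.91, 8.29 and 8.57 at baseline. The array numbered 1 was highest in each condition, the groups overlapped, and the differences from baseline were 0.21, 0.24 and 0.17 under the positive gradient, the negative gradient and high WSS.

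The 6 other kinesins had role medians within 0.1 of 0 against baseline. KIF2A, a relative of KIF2C that shortens microtubules, read 8.27, 8.43 and 8.72 on the positive gradient arrays, 8.13, 7.72 and 8.24 on the negative gradient arrays, 8.42, 8.42 and 8.69 at high WSS and 7.97, 7.84 and 8.04 at baseline. Its positive gradient arrays lay above the negative gradient arrays and above baseline. KIF2A rose with the block under the positive gradient (0.52, adjusted p = 0.0197 in limma) and at high WSS (0.56, adjusted p = 0.0265), and its difference between the gradients was 0.44 (95% interval 0.089 to 0.79, adjusted p = 0.864). KIF21A, a motor that restrains microtubule growth, read 5.25, 5.38 and 5.55 on the positive gradient arrays, 4.91, 4.84 and 5.32 on the negative gradient arrays, 5.79, 5.83 and 5.26 at high WSS and 5.70, 5.59 and 5.85 at baseline. This gene was dim, with a mean of 5.44 below the array medians. It was lowest on negative gradient arrays 1 and 2 and fell with the block under the negative gradient (−0.69, adjusted p = 0.044; 0.0613 without the block), and stood at −0.32 under the positive gradient and at −0.61 under the negative gradient against high WSS (adjusted p = 0.141). KIF5B, a cargo motor, read 12.16, 12.20 and 12.54 on the positive gradient arrays, 12.02, 12.01 and 12.28 on the negative gradient arrays, 12.38, 12.32 and 12.44 at high WSS and 12.11, 12.06 and 12.20 at baseline, and KIF1C, another cargo motor, read 9.12, 8.65 and 8.88 on the positive gradient arrays, 9.12, 8.62 and 9.21 on the negative gradient arrays, 8.88, 8.87 and 8.93 at high WSS and 9.14, 8.54 and 9.30 at baseline. These 2 moved little, with differences from baseline of 0.18, −0.02 and 0.25 for KIF5B and −0.11, −0.013 and −0.10 for KIF1C. KIF3A and KIF3C, of a motor family of cilia and transport, stood at 0.29 and −0.37 under the positive gradient.

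Of the 19 genes that match by name only, 3 rose and 3 fell with the block under the positive gradient against baseline. Of all named genes 16.1% rose and 18.2% fell, which are similar shares. The median of the 19 was −0.15. CDC37, which brings protein kinases to the chaperone Hsp90, was called without the block and read 8.87, 8.62 and 8.83 on the positive gradient arrays, 8.87, 8.48 and 8.39 on the negative gradient arrays, 8.38, 8.39 and 8.83 at high WSS and 7.95, 8.09 and 7.83 at baseline. The 3 baseline arrays were the lowest of the 12. CDC37 was 1.76-fold higher under the positive gradient than at baseline (8.77 ± 0.13 against 7.96 ± 0.13, SD, n = 3 each; difference 0.82, SE 0.16, adjusted p = 0.0214 in limma and 0.0103 with the block). It rose with the block under the negative gradient (0.63, adjusted p = 0.0454) and stood at 0.57 at high WSS (adjusted p = 0.0662). PLK3, a polo kinase of stress responses, was called without the block as well and read 7.08, 7.86 and 7.26 on the positive gradient arrays, 7.04, 7.43 and 7.15 on the negative gradient arrays, 7.05, 7.32 and 7.32 at high WSS and 6.77, 6.62 and 6.71 at baseline. Here array 2 was the highest under both gradients, the reverse of the division genes. PLK3 was 1.62-fold higher under the positive gradient than at baseline (difference 0.70, SE 0.18, adjusted p = 0.0423 in limma and 0.0149 with the block), and stood at 0.51 under the negative gradient and 0.53 at high WSS.

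CDK20, a kinase with a role in cilia, read 6.74, 6.57 and 6.77 on the positive gradient arrays, 6.66, 6.85 and 6.70 on the negative gradient arrays, 5.87, 6.04 and 6.85 at high WSS and 5.83, 6.01 and 6.28 at baseline. Both gradients lay above baseline on all arrays, and high WSS array 3 stood apart from the other 2 of its group. CDK20 rose with the block by 0.66 under the positive gradient (adjusted p = 0.0292 in limma) and 0.70 under the negative gradient (adjusted p = 0.0431), and stood at 0.44 between the positive gradient and high WSS (adjusted p = 0.79 without the block). CDK13, a kinase of transcription elongation, read 4.72, 4.84 and 4.87 on the positive gradient arrays, 4.77, 5.04 and 4.75 on the negative gradient arrays, 5.12, 5.57 and 5.20 at high WSS and 5.22, 5.51 and 5.17 at baseline. Both gradients lay below both uniform flows on all arrays. CDK13 fell with the block under the positive gradient (−0.49, adjusted p = 0.0177 in limma) and likewise under the negative gradient (−0.45, adjusted p = 0.0435), and its difference of −0.49 between the positive gradient and high WSS did not pass (adjusted p = 0.79).

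The splicing factor CDC40 read 8.57, 8.26 and 7.81 on the positive gradient arrays, 8.49, 8.10 and 8.38 on the negative gradient arrays, 8.74, 8.64 and 8.04 at high WSS and 9.14, 8.61 and 8.73 at baseline. All 3 arrays of each gradient lay below the 3 of baseline, and CDC40 fell with the block under the positive gradient (−0.61, adjusted p = 0.0283 in limma) and stood at −0.50 under the negative gradient (adjusted p = 0.0765). CDK5RAP3, an adaptor of the ubiquitin-like modifier UFM1, fell with the block under the positive gradient (−0.49, adjusted p = 0.0418), but its second probe set had the opposite sign (0.21, adjusted p = 0.334), so its direction is uncertain. The probe set annotated to CDK5R1, an activator of the neuronal kinase CDK5, had the highest mean of the members, and whether it measures that gene was not tested. It read 13.06, 13.07 and 13.09 on the positive gradient arrays, 13.19, 13.06 and 12.88 on the negative gradient arrays, 12.92, 12.88 and 13.16 at high WSS and 12.92, 12.91 and 13.05 at baseline. CDK2AP1, a protein that binds CDK2, read 10.76, 10.86 and 10.64 on the positive gradient arrays, 10.89, 10.61 and 10.59 on the negative gradient arrays, 10.49, 10.37 and 10.58 at high WSS and 10.41, 10.30 and 10.51 at baseline. The 2 gradients of CDK2AP1 lay above both uniform flows on all arrays, with differences of 0.27 between the positive gradient and high WSS (adjusted p = 0.79 in limma) and 0.34 between the positive gradient and baseline (adjusted p = 0.0791 with the block), whereas CDK5R1 stood at 0.11, 0.084 and 0.027 against baseline under the positive gradient, the negative gradient and high WSS. PLK2, a polo kinase of stress responses and centrioles, had 88.8% of its variation between replicate numbers and 1.67% between flow conditions. The remaining 10 of the 19 did not pass in any of the 5 comparisons with a block. They were the kinase CDK7, the transcription kinases CDK9 and CDK11B, the splicing factor CDC5L, the neuronal kinase CDK5, CDK5RAP1, CDC37L1, CDKN2AIPNL, CDC123 and MCM3AP. Of these 10, MCM3AP, of messenger RNA export, and CDC123, of translation initiation, had the lowest differences under the positive gradient against baseline, at −0.43 and −0.28.

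Genes of the same pathway outside these families were read from a list of 75 other division genes, of which 47 were measured. This list was drawn up with earlier results of these data known, so its counts are descriptive and are no independent support. Under the positive gradient against baseline 4 of the 47 rose without the block (6.08% of named genes) and 34 with it (16.1%), with a median of 0.76. At high WSS 0 rose without the block (0.251% of named genes), with 33 of 47 at an unadjusted p under 0.05 in limma (26.8%). With the block 35 rose there (6.79%), with a median of 0.84. Under the negative gradient 1 rose without the block (3.14% of named genes) and 5 with it (8.32%). Between the gradients 0 did, with 5 of 47 at an unadjusted p under 0.05 (11.5% of named genes). The 4 were CCND1, BRCA1, MYBL2 and WEE1. CCND1, the G1 cyclin that the symbol rule left out, read 9.998, 9.22 and 9.78 on the positive gradient arrays, 10.08, 8.45 and 8.99 on the negative gradient arrays, 8.16, 8.02 and 10.07 at high WSS and 7.78, 7.08 and 7.81 at baseline. Both gradients lay above baseline on all arrays, and high WSS array 3 stood at their level, about 2 units above the other 2 of its group. CCND1 rose by 2.11 under the positive gradient (adjusted p = 0.0324 in limma), rose with the block by 1.62 under the negative gradient (adjusted p = 0.0383) and stood at 1.19 at high WSS (adjusted p = 0.105). BRCA1, of DNA repair, rose by 0.83 under the positive gradient and by 0.83 under the negative gradient (adjusted p = 0.0292 and 0.0485), and MYBL2, a transcription factor of late cell cycle genes, and WEE1, the kinase that restrains CDK1, by 1.30 and 0.65 under the positive gradient. DBF4, the activator of the kinase that fires origins, stood at 0.53 between the gradients (adjusted p = 0.849), at −0.34 between the positive gradient and high WSS (adjusted p = 0.79) and at −0.87 between the negative gradient and high WSS (adjusted p = 0.0759), where the list median was −0.60.

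A list of 24 repressors of the cycle and genes of cell cycle exit had 11 measured members, among them MYC and TFDP1, which are known as drivers rather than repressors. Earlier results of these data were known when this list was drawn up too, so its calls are descriptive and are no independent support. Without the block 2 fell under the positive gradient against baseline, GAS2 and MYC (7.77% of named genes), and 1 fell at high WSS, GAS2 (0.93%). GAS2, a cytoskeletal protein of growth-arrested cells, read 4.61, 4.85 and 4.25 on the positive gradient arrays, 6.30, 5.09 and 6.76 on the negative gradient arrays, 5.14, 4.97 and 4.45 at high WSS and 6.99, 6.54 and 7.15 at baseline. The positive gradient and high WSS lay below baseline on all arrays, with differences of −2.32 (adjusted p = 0.0142 in limma) and −2.04 (adjusted p = 0.0269). All values of these 2 groups were below the array medians, so the sizes of both differences rest partly on low signals. Under the negative gradient array 2 was low too, and the difference was −0.85 (adjusted p = 0.173). With the block 2 of the 11 rose under the positive gradient, GADD45B and KLF4, and RPRM fell in addition. Of named genes 16.1% rose and 18.2% fell there. At high WSS KLF4 rose and GAS2, RPRM and YPEL3 fell, where 6.79% of named genes rose and 7.77% fell. MYC, a transcription factor that drives growth, fell by 0.86 on the log2 scale under the positive gradient (adjusted p = 0.037). RPRM, an inhibitor of mitotic entry, was the 1 gene of the list called with the block between the gradients; it read 7.35, 8.87 and 6.85 on the positive gradient arrays, 8.35, 9.92 and 8.69 on the negative gradient arrays, 7.11, 8.84 and 6.78 at high WSS and 8.36, 10.44 and 8.43 at baseline. Array 2 was the highest of each group, opposite to the division genes, and RPRM fell with the block under the positive against the negative gradient (−1.30, adjusted p = 0.0437). YPEL3, a gene linked to growth arrest, was higher under the negative gradient than at high WSS (1.08, adjusted p = 0.0376 in limma). Between the gradients YPEL3 and GAS2 stood at −0.71 and −1.48 (adjusted p = 0.552 and 0.562), and between the positive gradient and high WSS TFDP1 and YPEL3 at −0.31 and 0.36 (adjusted p = 0.79 for each).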

How the data were processed

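RNA from 12 samples of bovine aortic endothelial cells was hybridized to 1-colour Affymetrix bovine arrays. The authors deposited log2 values, summarized per probe set by RMA, per the submitters' processing notes, which also name limma; the sources used here give no versions. All 24128 probe sets were read; 112 controls were left out, and 4726 probe sets had 1 gene symbol in the platform annotation, giving 3977 genes. Of these probe sets 4715 matched RefSeq gene records (ARS-UCD2.0) by Entrez number, with 0 symbols changed. The members and gene lists were chosen with earlier results of these data known.

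limma 3.58.1 in R 4.3.3 was fitted to all 24016 probe sets and 12 arrays with a mean per condition (8 residual degrees of freedom, 4.95 prior), and with a block for the replicate number of the sample titles (6 and 5.8). In 5 of 6 comparisons same-numbered arrays deviated together (Pearson r over probe sets 0.149 to 0.616 in each pair); negative gradient against high WSS had one pair at −0.0785, and its blocked fit stands only among the alternatives. Named were the called members, up to 12 a direction, or the 5 with the smallest p where fewer than 5 were called, and the 2 members of each role with the highest mean, and any member within the account of its family. The fit without the block was run on simulated data with independent noise on each array, read for the positive gradient against baseline alone. The fit with the block was not tested in this way, and the simulated data held no effect of the replicate number. Alternatives were each array left out, only the 2 groups compared, centred or quantile-normalized arrays, a trended robust prior, the dimmest 25% left out and the mean of a gene's probe sets.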

Additional observations from a re-analysis of the deposited data

How the results depend on the processing

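Between the positive gradient and baseline limma called 8 members in the fit without a block, 54 with the replicate block (51 higher and 3 lower), 14 with only the 2 groups compared and 5 with each array centred on its median; leaving out 1 array gave 0 to 16. With the replicate block 7 were called between the negative gradient and baseline and 44 between high WSS and baseline, against 0 without it, and 31 (1 higher and 30 lower) between the negative gradient and high WSS, where the numbers did not pair the arrays. Of the 3977 named genes the block called 230 higher and 199 lower under the negative gradient against high WSS. Leaving out 1 array gave 0 to 4 calls for the negative gradient against baseline, 0 to 1 for high WSS against baseline, 0 to 1 for the positive gradient against high WSS, 0 to 6 for the negative gradient against high WSS and 0 to 0 for the positive against the negative gradient. The replicate block changed no other count of calls. With it, and without the 4 arrays of 1 number, an alternative chosen after seeing the data, calls ranged over 0 to 44 for the positive gradient, 0 to 17 for the negative gradient and 0 to 34 for high WSS against baseline (28 without number 3), and over 0 to 23 for the negative gradient against high WSS (13 without number 1), and were 0 for the other 2 comparisons. The cause of these changes was not tested, beyond the smaller number of arrays in the fits that left arrays out. Over 163 differences of named members, 145 of 3586 alternative values had the other sign, none of them of a called value, and the largest of the differences concerned was 0.31 in size. Many of the 3586 could not change sign, because their alternatives leave a difference of group means as it was. These were the block on all arrays, only the 2 groups compared, the dimmest 25% left out, the trended robust prior and an array of another group left out. The 145 in 3586 is therefore no measure of how stable the directions were. Median differences kept their sign against baseline for the positive gradient (0.37 to 0.65) and high WSS (0.40 to 0.71) but not for the negative gradient (−0.15 to 0.31). Precision is limited by 3 arrays a group. Family members outside the authors' filtered table have no name in the annotation used. Several probe sets of a gene had opposite signs for 1 of 25 genes between the gradients. Against baseline they did for 4 under the positive gradient, 11 under the negative gradient and 3 at high WSS. Against high WSS they did for 13 (positive gradient) or 6 (negative).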
